A study of Homo sapiens with 12 samples.

Results

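The 5 genes described here, ARID5B, RAB3A, DDIT4L, ZNF488 and PTCH1, fell to under 50% of their control level when HCT116 cells, a human colorectal carcinoma line, were exposed to the cytokine TNF-alpha (TNF). They were chosen by symbol because TNF lowered them over 2-fold in these same data and the fall held when any 1 library was left out, so their fall with TNF alone is a description and carries no test. All 5 are among the 56634 gene symbols of the counts table and all 5 passed the filter on low counts, as did 13084 symbols in total. RNA-seq was done on 4 groups of 3 biological replicates, all grown as the same line without genetic change. The control group was held in 0.1% DMSO, the solvent, over 3 hours. The Senexin B group was held over the same 3 hours in 1 µM Senexin B, which inhibits the Mediator kinases CDK8 and CDK19. The TNF group had DMSO for 1 hour before TNF at 10 ng/mL was given for another 2 hours. In the TNF plus Senexin B group, 1 µM Senexin B was given for 1 hour before 10 ng/mL TNF for 2 hours.

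TNF binds its receptor at the cell surface and activates NF-kB and MAP kinases, and it is best known for genes that it switches on. Genes that it lowers are less often described. Of the 5 here, ARID5B and ZNF488 encode DNA-binding or zinc finger regulators of transcription. PTCH1 encodes the receptor of Hedgehog ligands, which holds the pathway off and is itself a classic Hedgehog target gene. RAB3A encodes a small GTPase of secretory vesicles, and DDIT4L, also called REDD2, encodes an inhibitor of the growth kinase complex mTORC1.

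Library totals ran from 5835226 (TNF replicate 1) to 9281176 counts, and the 5 genes held 12 to 159 counts in a library. Within groups, the spread of 4 of the genes was no larger than counting error. Chi-square per degree of freedom was 0.264 for ZNF488, 0.313 for PTCH1, 0.394 for RAB3A and 0.967 for DDIT4L, against 1.54 for ARID5B. The choice of the genes favoured a stable fall, so these values are a description. The TNF labels were borne out by NFKBIA, which encodes an NF-kB inhibitor and is a standard TNF-induced gene. It stood at 252 to 298 CPM (counts scaled to each library's corrected size) in the 6 libraries labelled with TNF and at 21.7 to 25.5 CPM in the other 6. All 7 epithelial markers were detected, summing to 4077 to 4890 CPM over the 12 libraries. The 7 blood cell markers summed to at most 0.943 CPM and the 6 fibroblast markers to 7.46 to 11.2 CPM. Nearly all of the fibroblast sum was COL1A1, at group means of 9.27 to 10.3 CPM and the only 1 of the 6 to pass the filter. DCN and LUM were at 0 counts in every group. Control replicate 1 and TNF replicate 1 stood apart from the other replicates of their groups (chi-square per degree of freedom 2.51 to 2.87, against 1.25 to 1.37 between the other replicates). In bulk RNA, fewer cells of a kind and less RNA per cell cannot be told apart.

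ARID5B, on chromosome 10 from 61901300 to 62096944 (plus strand, GENCODE 29, GRCh38), encodes a DNA-binding protein that works with the histone demethylase PHF2. Its level was 15.1, 14 and 17.6 CPM in control replicates 1, 2 and 3 and 4.68, 5.89 and 5.25 CPM in the TNF replicates. It was 12.9, 13.02 and 13.3 CPM with Senexin B alone and 6.39, 3.64 and 4.15 CPM with TNF plus Senexin B. Every library with TNF lay below every library without it, as did those of the other 4 genes. In TNF against control, which chose the genes, 11.8% of tested genes had no overlap in that direction. With both agents against Senexin B, 10.4% had none. The share over all 12 libraries together was not counted, and the choice of the genes favoured such a separation. Mean levels were 15.6 ± 1.83 CPM in control, 13.1 ± 0.195 with Senexin B, 5.27 ± 0.603 with TNF and 4.73 ± 1.46 with both agents (SD, n = 3). ARID5B fell furthest of the 5 genes, to 34.2% of control with TNF by the fitted fold change. RAB3A fell to 42.1%, DDIT4L to 43.4%, ZNF488 to 44.0% and PTCH1 to 44.7%.

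RAB3A lies on chromosome 19 from 18196784 to 18204074 (minus strand). Its level was 9.03, 8.78 and 9.28 CPM in control and 3.64, 3.19 and 4.52 CPM with TNF. With Senexin B alone it was 11.5, 10.3 and 11.0 CPM, and with both agents 4.34, 5.06 and 4.96 CPM. The Senexin B libraries were the highest and lay above all 3 control libraries. The 2 groups with TNF overlapped each other and lay below both groups without it. Mean levels were 9.03 ± 0.250 CPM in control, 10.9 ± 0.600 with Senexin B, 3.78 ± 0.677 with TNF and 4.78 ± 0.389 with both (SD, n = 3). By gene span, RAB3A overlaps MPV17L2 on the opposite strand. Whether their exons share bases was not examined, and the strand setting of the counts is not stated. Reads from any shared bases may therefore not have been told apart. MPV17L2, at a mean of 30.9 CPM, stood at -0.31 ± 0.08 on the log2 scale in TNF against control, with an edgeR adjusted p of 0.0109. That call was lost with GC-corrected offsets, at -0.20 (0.125), without control replicate 2 (0.0546) and without control replicate 1 and TNF replicate 1 together (0.0597). Its log2 fold change was -0.12 ± 0.08 with both agents against Senexin B (± standard error throughout for log2 fold changes).

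DDIT4L lies on chromosome 4 from 100185870 to 100190782 (minus strand) and was the least abundant of the 5 in CPM. It was at 6.87, 6.17 and 5.86 CPM in control, 5.04, 6.08 and 5.99 with Senexin B, 2.08, 2.45 and 3.42 with TNF, and 2.53, 3.53 and 2.08 with both agents. The groups with TNF did not overlap those without it, but each spread widely, at 60 and 69 counts summed over 3 libraries. Mean levels were 6.30 ± 0.520 CPM in control, 5.70 ± 0.577 with Senexin B, 2.65 ± 0.691 with TNF and 2.71 ± 0.743 with both (SD, n = 3).

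ZNF488, a zinc finger repressor described in oligodendrocyte development, lies on chromosome 10 from 47365496 to 47384273 (minus strand). Its level was 7.68, 8.31 and 8.95 CPM in control and 8.79, 8.56 and 9.20 CPM with Senexin B. It was 3.47, 3.43 and 4.03 CPM with TNF and 3.50, 3.53 and 4.15 CPM with both agents. Its 4 groups fell into a high pair and a low pair, with overlap inside each pair and none between them. Mean levels were 8.31 ± 0.6345 CPM in control, 8.85 ± 0.329 with Senexin B, 3.64 ± 0.335 with TNF and 3.72 ± 0.370 with both (SD, n = 3).

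PTCH1 lies on chromosome 9 from 95442980 to 95517057 (minus strand). It was at 9.70, 8.78 and 10.4 CPM in control and at 9.14, 8.80 and 7.71 CPM with Senexin B. It was at 4.16, 4.29 and 4.40 CPM with TNF and at 5.54, 5.29 and 5.65 CPM with both agents. The 3 libraries with both agents lay between the TNF libraries and those without TNF and overlapped neither. Mean levels were 9.62 ± 0.805 CPM in control, 8.55 ± 0.749 with Senexin B, 4.28 ± 0.118 with TNF and 5.495 ± 0.184 with both (SD, n = 3).

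**Figure D1:**
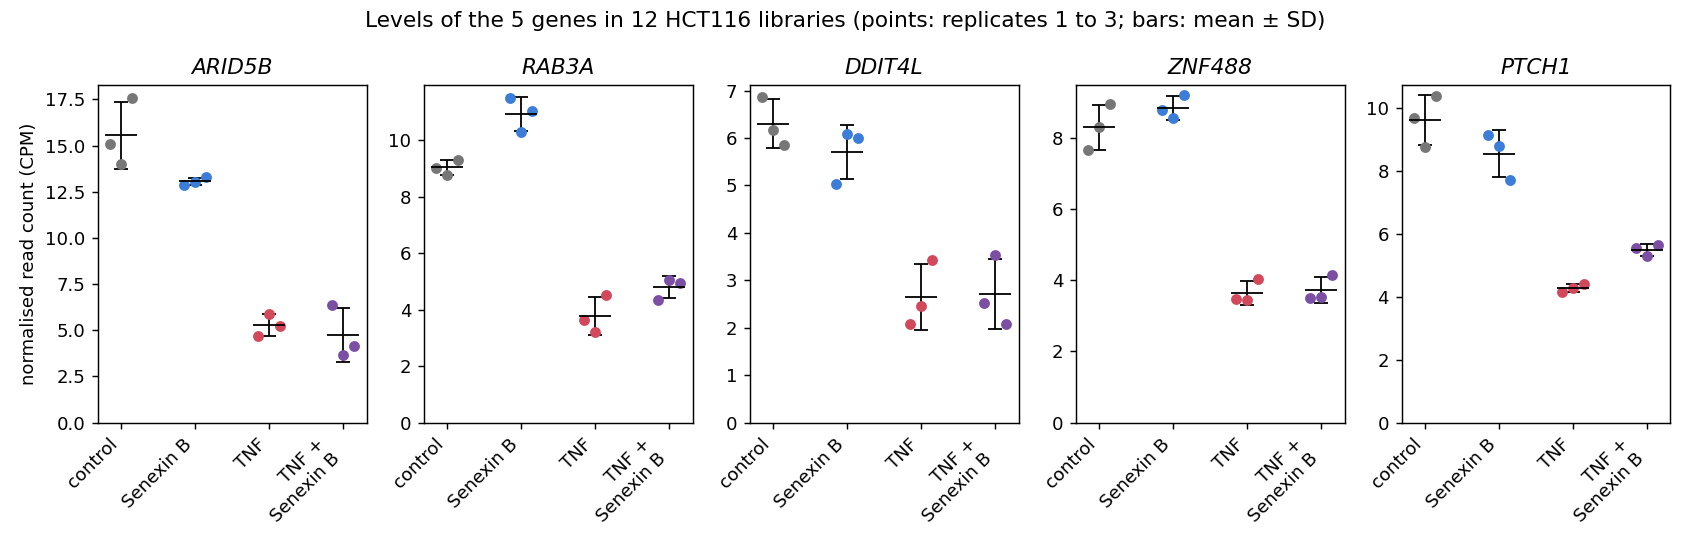
Normalised read count (CPM, linear axis from 0) of each gene in the 12 libraries: coloured points are replicates 1 to 3 of each group, horizontal bars the mean and whiskers the SD. In each of the 5 panels the 6 libraries with TNF lie below the 6 without it, and for PTCH1 the libraries with both agents sit above those with TNF alone.

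Per kilobase of annotated exon, the control levels ran from 4.97 ± 0.137 CPM for RAB3A through 2.38 ± 0.181 for ZNF488, 2.10 ± 0.174 for DDIT4L and 1.70 ± 0.200 for ARID5B to 0.580 ± 0.0485 for PTCH1 (SD, n = 3). ZNF488 and DDIT4L, neighbours in this order, differed by less than their spreads together. Averaged over the 12 libraries, the levels per kilobase of all 5 lay below the median of the tested genes with a known length. They ran from the 6.02 percentile for PTCH1 to the 39.2 percentile for RAB3A.

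TNF plus Senexin B against Senexin B compares 6 libraries other than the 6 whose difference chose the genes, and it asked whether the fall recurred with the Mediator kinases inhibited. By the stated rule, these 6 entered the choice only through the filter, scaling and dispersion that the 12 libraries share in the fit. The genes were chosen with earlier results of these data known, so full independence cannot be shown. All 5 genes were lower there, and in each the libraries of the groups did not overlap. ARID5B fell by 1.47 ± 0.17 on the log2 scale, to 36.1% of its level with Senexin B alone (edgeR adjusted p = 6.63e-11, adjusted over all tested genes). ZNF488 fell by 1.25 ± 0.18 (edgeR adjusted p = 6.10e-08) and RAB3A by 1.19 ± 0.16 (edgeR adjusted p = 1.60e-08), to 42.2% and 43.8%. DDIT4L fell by 1.07 ± 0.22 (edgeR adjusted p = 0.000228), to 47.6%. PTCH1 fell by 0.63 ± 0.16 (edgeR adjusted p = 0.00446), to 64.5%, the smallest fall of the 5.

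By the same call, an adjusted p under 0.05, 1.68% of tested genes were lower in that comparison, and 10.4% of tested genes had no overlap in that direction. Among the 220 genes called lower, ordered by fold, ARID5B ranked 2, ZNF488 5, RAB3A 7, DDIT4L 9 and PTCH1 38. Only 12 genes (0.0917%) were both called and at least 2-fold lower, and 4 of the 5 genes were among them. The median over the 5 genes was -1.19, beside -0.0047 over all tested genes. TNF plus Senexin B replicate 1 had the highest ARID5B level of its group, and without it ARID5B stood at -1.74. The 5 calls held in each of the 19 other fits tried, including that of the compared groups alone, and of these DESeq2 brought PTCH1 nearest to the threshold (DESeq2 adjusted p = 0.0464).

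In TNF against control, which chose the genes, 0.161% of tested genes (21) were both called and at least 2-fold lower. For 7 of the 21 both the call and the fold held in every one of the 12 fits that left out 1 library. These are the 5 genes, AXIN2, which restrains the Wnt pathway, and ID2, an inhibitor of differentiation. The genes just inside the 2-fold threshold were LPAR5 at -1.02 ± 0.22, RGMA at -1.01 ± 0.22 and GATA2 at -1.001 ± 0.13. Just outside it stood BMP4 at -0.99 ± 0.05, PCDHAC2 at -0.97 ± 0.28 and TGFBR3L at -0.97 ± 0.27. TGFBR3L ran from -1.47 without TNF replicate 2 to -0.70 without TNF replicate 1, and PCDHAC2 from -1.17 to -0.81 without 1 library. The calls of both were lost without TNF replicate 1 (edgeR adjusted p = 0.102 for TGFBR3L and 0.0600 for PCDHAC2), and that of PCDHAC2 also without control replicate 2 (0.0850). PTCH1, nearest to the threshold of the 5, was at -1.16 ± 0.17.

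Of the 16 other genes at least 2-fold lower with TNF, 7 were also called lower with both agents against Senexin B, and 2 were higher there without a call. The 9 without a call were the weaker ones, averaging 0.976 to 3.99 CPM in control against 4.15 to 62.0 CPM for the 7. AXIN2 at -1.01 ± 0.15, ID2 at -1.14 ± 0.08, LPAR5 at -1.06 ± 0.22 and GATA2, a hematopoietic transcription factor, at -0.89 ± 0.12 kept that call in every alternative, 4 of the 7. The calls of SSTR5 and DBP were lost without Senexin B replicate 3 (edgeR adjusted p = 0.236 and 0.395) and that of RGMA without TNF plus Senexin B replicate 3 (0.333). In all, 5 single libraries ended the call of SSTR5, 4 that of DBP and 5 that of RGMA. Median log2 fold changes there were -0.60 for the 16 and -1.19 for the 5 genes. The choice favoured genes with stable values, so the gap between these medians is a description.

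**Figure D2:**
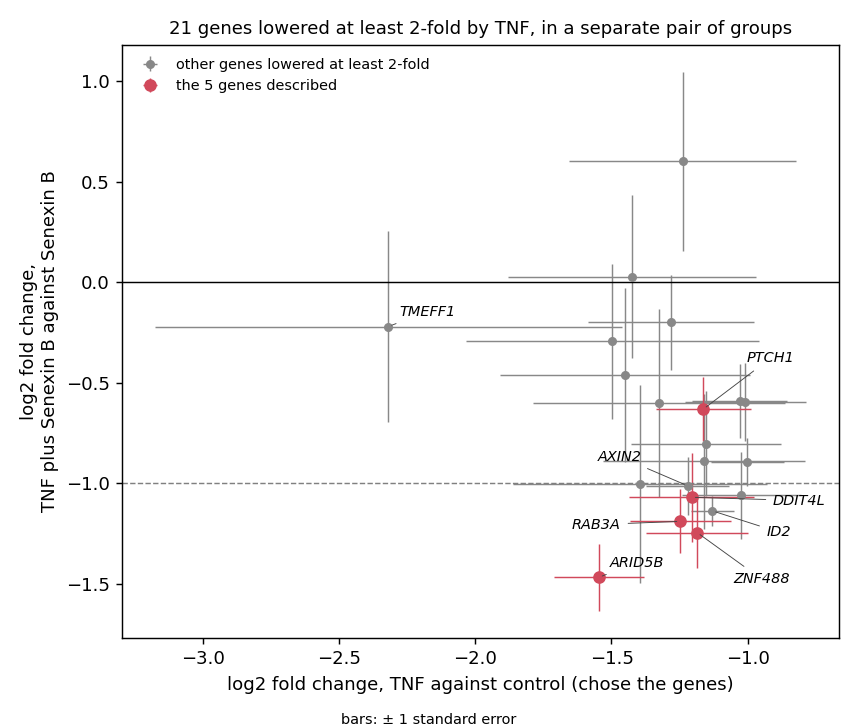
Log2 fold change in TNF against control (x axis) and with both agents against Senexin B (y axis, separate libraries) for the 21 genes called at least 2-fold lower with TNF: red points are the 5 genes described, grey points the other 16, bars ± 1 standard error. Of the red points, 4 lie below the dashed line at -1 (2-fold lower), with PTCH1 at -0.63, while grey points scatter up to 0.60.

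The inhibitor alone was compared with control, a comparison that shares its control libraries with the choice of the genes. None of the 5 genes was called by edgeR's test (2 had an unadjusted p under 0.05, and DESeq2 called 0 of them), where 3.04% of tested genes were. RAB3A stood at 0.28 ± 0.13 (edgeR adjusted p = 0.328, 95% interval 0.01 to 0.54) and ARID5B at -0.26 ± 0.12 (edgeR adjusted p = 0.316, 95% interval -0.50 to -0.02), both with no overlap between the groups, as for 20% of tested genes in either direction. PTCH1 was at -0.18 (95% interval -0.45 to 0.09), DDIT4L at -0.14 (-0.49 to 0.21) and ZNF488 at 0.09 (-0.19 to 0.36). These intervals do not show that the levels were equal.

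The inhibitor was also compared in the presence of the cytokine, where the TNF libraries took part in the choice of the genes. Again none of the 5 was called (0 also at an unadjusted p under 0.05, and 0 by DESeq2), where 5.45% of tested genes were. PTCH1 was at 0.35 ± 0.19 (edgeR adjusted p = 0.307, 95% interval -0.02 to 0.73), with all 3 libraries above those with TNF alone, as 22.6% of tested genes had no overlap in either direction. RAB3A was at 0.33 ± 0.20 (95% interval -0.07 to 0.73), ARID5B at -0.18 (-0.57 to 0.21; -0.45 without TNF plus Senexin B replicate 1 and -0.023 without replicate 2), ZNF488 at 0.03 (-0.39 to 0.45) and DDIT4L at 0.00 (-0.52 to 0.52).

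The interaction, the log2 fold change with TNF under Senexin B minus that without it, holds the contrast that chose the genes. It called 0.0459% of tested genes and none of the 5 (1 had an unadjusted p under 0.05, and DESeq2 called 0 of them). For PTCH1 it was 0.53 ± 0.24 (edgeR adjusted p = 0.765, unadjusted p = 0.0269), from 0.46 to 0.59 over the 18 alternatives. The smaller fall of PTCH1 under the inhibitor was not separated from the spread between replicates once all genes were tested. For the other 4 genes the interaction ran from -0.06 ± 0.26 (ZNF488) to 0.14 ± 0.32 (DDIT4L).

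**Figure D3:**
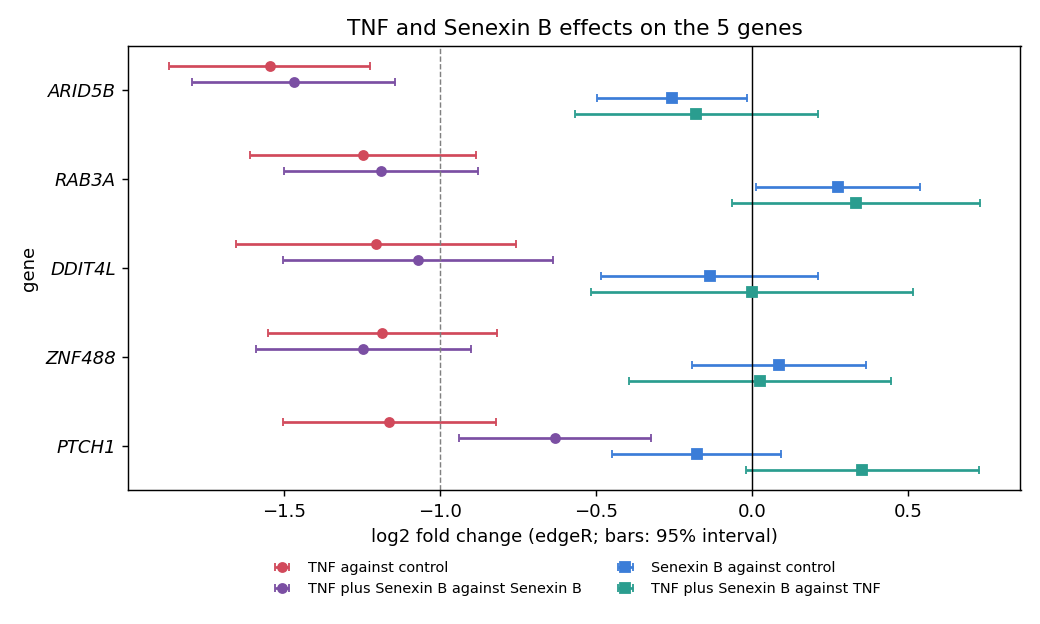
Log2 fold changes (x axis) of the 5 genes with their 95% intervals in 4 comparisons; circles are the effect of TNF without and with Senexin B, squares the effect of Senexin B without and with TNF, and the dashed line marks 2-fold lower. The TNF effects lie at -0.63 or below, and the Senexin B effects lie between -0.26 and 0.35.

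Close relatives and partners of the genes were looked up from lists written from textbook knowledge. PTCH1 represses SMO, the signal transducer of the Hedgehog pathway, which acts through SUFU and the GLI factors. Of 14 tested Hedgehog genes other than PTCH1, 2 fell and 0 rose in TNF against control, where 10.0% of tested genes were called, and 0 were called with both agents against Senexin B (5.95% of tested genes). GPR161, a ciliary receptor that restrains the pathway, fell by 0.45 ± 0.10 (edgeR adjusted p = 0.000619). GLI2, a transcriptional effector, fell by 0.54 ± 0.17 (edgeR adjusted p = 0.0264), but the call was lost when TNF replicate 1 (0.171), TNF replicate 2 (0.0535) or control replicate 3 (0.201) was left out, with offsets corrected for GC content (0.0821) and by DESeq2 (0.0988). The list's median was -0.29 in TNF against control and -0.10 with the inhibitor present, beside -0.0052 and -0.0047 over all tested genes. SMO stood at -0.14 ± 0.09 and SUFU at -0.09 ± 0.08 with TNF, without a call. GLI1, another Hedgehog target gene, held 42, 34, 28 and 37 counts summed over the control, Senexin B, TNF and TNF plus Senexin B libraries, too few to read a change. GLI3 held 0 counts and HHIP 2 counts in all.

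RAB3A is 1 of 4 RAB3 paralogs. RAB3B was the most abundant of them, at 80.1 ± 7.32 CPM in control and 79.8 ± 2.88 CPM with TNF (SD, n = 3), a log2 fold change of -0.0034 ± 0.06 (95% interval -0.12 to 0.12). RAB3D, which marks secretory granules outside the nervous system, stood at the edge of a call with TNF, at -0.33 ± 0.11 (edgeR adjusted p = 0.0501). It was called with the replicate block (0.0462), with RLE factors (0.0485) and without control replicate 2, at -0.41 (0.0246). RAB3D stood at -0.25 ± 0.11 with both agents against Senexin B (edgeR adjusted p = 0.263). RAB3C held at most 1 count in a group. MADD, the exchange factor that loads RAB3 with GTP and also binds the TNF receptor, was at -0.13 ± 0.06 with TNF, and the RAB3GAP subunits RAB3GAP1 and RAB3GAP2 were at 0.10 ± 0.05 and 0.11 ± 0.06, all without a call. Of 21 tested genes of the RAB3 cycle and vesicle docking other than RAB3A, 2 rose and 1 fell with TNF, and 1 rose with both agents against Senexin B, where 10.0% and 5.95% of tested genes were called. RAB3IP, an exchange factor for RAB8, rose by 0.49 ± 0.08 and by 0.71 ± 0.08 (edgeR adjusted p = 7.78e-06 and 9.05e-10). DENND4A rose by 0.42 ± 0.11 (edgeR adjusted p = 0.00567) with TNF, and by 0.37 without control replicate 1 and TNF replicate 1 together (0.0528). SYTL1, a RAB27 effector, stood at -0.37 ± 0.13 with an edgeR adjusted p of 0.0485, a call kept in 4 of the 19 alternatives and lost without any of 10 single libraries, the largest p being that without control replicate 1 (0.208).

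DDIT4L and DDIT4 encode REDD2 and REDD1, which restrain mTORC1 through the TSC complex. DDIT4 was higher, not lower, with both agents against Senexin B, at 53.1 ± 0.959 CPM against 42.9 ± 4.84 CPM (SD, n = 3), a log2 fold change of 0.31 ± 0.08 (edgeR adjusted p = 0.0104). That call was lost without Senexin B replicate 1 (0.104), Senexin B replicate 3 (0.108) or TNF plus Senexin B replicate 1 (0.0546). In TNF against control DDIT4 was at 0.22 ± 0.09 (edgeR adjusted p = 0.134). It was called there without TNF replicate 1, at 0.34 ± 0.08 (edgeR adjusted p = 0.00341), without control replicate 1 and TNF replicate 1 together, at 0.30 (0.0199), and with GC-corrected offsets, at 0.29 (0.00838). Of 18 tested genes of mTORC1 control other than DDIT4L, 1 rose and 0 fell in each of the 2 TNF comparisons, where 10.0% and 5.95% of tested genes were called. SESN2, a stress-induced mTORC1 inhibitor, was the one that rose with TNF alone, by 0.43 ± 0.09 (edgeR adjusted p = 0.000233). With both agents against Senexin B, SESN2 ran from 0.003 to 0.11 over the 19 alternatives and was called in 0. In Senexin B against control it ran from 0.50 to 0.59 and was called in all 19.

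Of 13 tested members of the ARID family and PHF2, ARID5B aside, 1 rose and 1 fell with TNF, where 10.0% of tested genes were called. ARID3A fell by 0.58 ± 0.12 (edgeR adjusted p = 0.000472) from 18.4 to 12.3 CPM. ARID2, a subunit of the PBAF chromatin remodeller, was at 0.19 ± 0.06 (edgeR adjusted p = 0.0240), lost without TNF replicate 1 (0.0839), TNF replicate 2 (0.0645), control replicate 2 (0.0637) or control replicate 3 (0.173), with GC-corrected offsets (0.124), with the compared groups alone (0.0813) and by DESeq2 (0.0762). It also rose with both agents against Senexin B, by 0.23 ± 0.06 (edgeR adjusted p = 0.00268), the 1 call of the list there. ARID5A, the nearest paralog of ARID5B, was at -0.28 ± 0.15 and -0.23 ± 0.14 in the 2 TNF comparisons, and PHF2 at -0.07 ± 0.07 and 0.06 ± 0.07, without a call. For ZNF488, its paralog PRDM8 held 5 to 7 counts in a group and the oligodendrocyte factor OLIG2 at most 1 count, so neither could be compared. Of 3 tested genes of that list, CNP, a myelin enzyme, was the 1 called lower with TNF, at -0.17 ± 0.05 (edgeR adjusted p = 0.0251), and 0 were called with the inhibitor present. The CNP call was lost without control replicate 1 (0.0659), control replicate 3 (0.0814), TNF replicate 1 (0.0808) or TNF replicate 3 (0.0894). It was also lost in 5 other alternatives, up to 0.134 without control replicate 1 and TNF replicate 1 together.

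**Figure D4:**
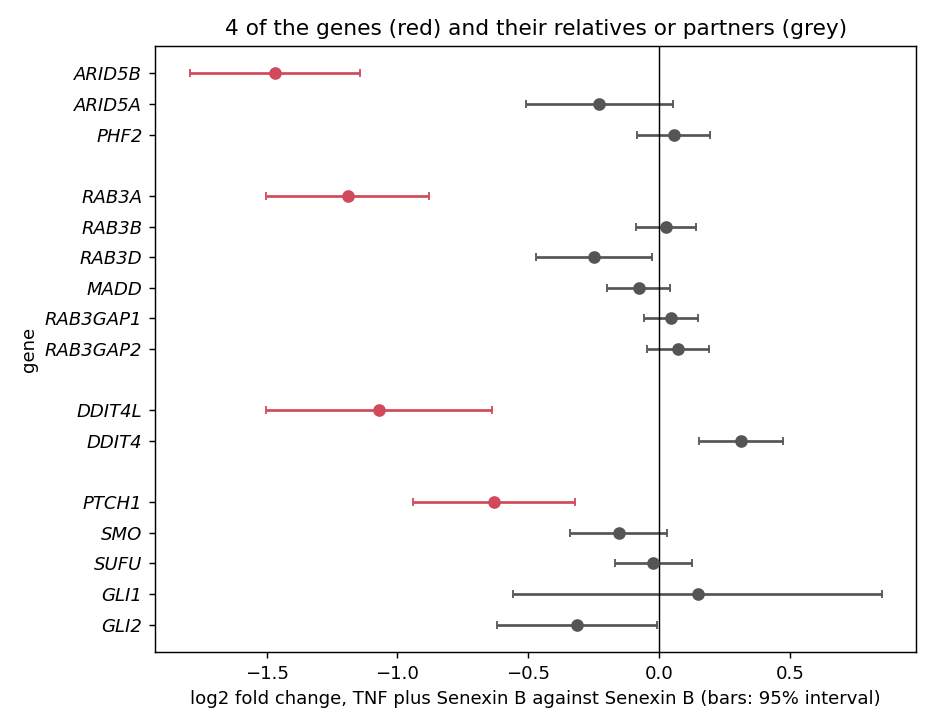
Log2 fold change with both agents against Senexin B, with 95% intervals, for ARID5B, RAB3A, DDIT4L and PTCH1 (red) and for their paralogs or partners (grey). The red points lie between -1.47 and -0.63, DDIT4 lies at 0.31, and the widest bar belongs to the low-count gene GLI1.

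Neighbouring genes were also read, without a test of position. Of the 20 nearest tested genes, 2 on each side of each of the 5, none was called lower with both agents against Senexin B. In that comparison 1.68% of tested genes were called lower and 5.95% in either direction. Among the 20, 1 was called higher there. That gene was JUND, an AP-1 gene next to RAB3A, which rose by 0.43 ± 0.06 (edgeR adjusted p = 2.21e-06). The 20 ran from -0.54 to 0.43. They lay from 16.2 kb (FANCC, beside PTCH1) to 1234 kb (AGAP7P, beside ZNF488) from their gene.

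Genes outside the 5 that were most like each of them over the 12 libraries were ranked by Pearson's r of log2(CPM + 1). The ranking covered 10422 genes averaging 5 CPM or more, with the 5 genes, clone-based names and small RNAs passed over. The libraries of a group share their treatment, so r is not independent of the group means and is given as a description. For ARID5B the nearest were ID2 (r = 0.979), LZTS2 (0.960) and RGS2 (0.953). For RAB3A they were ADM (0.980), GATA2 (0.979) and DUSP6 (0.974), and for ZNF488 ADM (0.967), AXIN2 (0.967) and ID2 (0.965). ZNF488 was nearer to RAB3A, itself 1 of the 5, at r = 0.971. For PTCH1 they were NACC2 (0.978), AKAP17A (0.947) and SMIM3 (0.940), and for DDIT4L CDC42EP4 (0.953), JAG2 (0.940) and CORO1B (0.936). The value of r takes no account of the size of a change. With both agents against Senexin B these genes ran from -1.14 (ID2) to -0.14 (AKAP17A) on the log2 scale. AKAP17A (edgeR adjusted p = 0.395) and CORO1B (0.207) were not called there. The calls of CDC42EP4 and SMIM3 were lost in 7 and 8 of the 19 alternatives.

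The gene models of the 5 were unlike one another. ARID5B spans 195.6 kb and PTCH1 74.1 kb, against 18.8 kb for ZNF488, 7.29 kb for RAB3A and 4.91 kb for DDIT4L (median of tested genes 32.5 kb). Transcript GC content was 41.4% for DDIT4L, 44.2% for ARID5B, 48.7% for PTCH1, 54.5% for ZNF488 and 59.8% for RAB3A. The median was 48.4% for tested genes and 55.9% for the other genes called lower with both agents against Senexin B. With GC-corrected offsets the log2 fold changes in that comparison ran from -1.48 (ARID5B) to -0.64 (PTCH1) and all 5 kept their call. The pentamer ATTTA, the core of AU-rich elements known for marking short-lived mRNAs, occurred 11 times in the 3′ untranslated region of ARID5B, 9 times in PTCH1, 4 in RAB3A, 3 in DDIT4L and 1 in ZNF488. Per kilobase of that region, RAB3A had the most, at 5.83, followed by ARID5B at 2.81, PTCH1 at 2.57, DDIT4L at 1.66 and ZNF488 at 0.433, beside a median of 1.67 for tested genes. The median number was 2 for tested genes and 2 for the other genes called lower, and 73.3% of tested genes held at least 1.

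Promoter windows of RefSeq (GRCh38.p14, 250 bases before to 50 after each annotated start) were found for 4 of the 5 genes: 1 each for RAB3A and DDIT4L, 2 for ARID5B and 5, some overlapping, for PTCH1. Both strands were searched. The letters for GLI factors were GACCACCCA. Those for AP-1 were TGANTCA. The full cAMP response element was TGACGTCA. Its core, contained in the full element, was TGACG. For the E-box the letters were CACGTG. For TCF factors they were ATCAAAG. For the TATA box they were TATAAA. For the GC box they were GGGCGG. NF-kB was searched by its consensus. A match is a run of letters and no evidence of binding. The NF-kB consensus was matched in 1 of the 9 windows, the most upstream of PTCH1, and in 11.3% of all 35116 windows. The GC box was matched in 4 of the 9 and in 45% of all. AP-1, full cAMP, E-box and TCF letters were in none of the 9, and in 7.71%, 1.85%, 7.26% and 2.62% of all windows. Shown are the 3 windows with a match that few promoters hold or that lies near the start, in the direction of transcription. Capitals mark TGACG on the reverse strand in RAB3A (chr19:18203993-18204292, minus strand), TATAAA in DDIT4L (chr4:100190419-100190718, minus strand) and the GLI letters on the reverse strand in PTCH1 (chr9:95509217-95509516, minus strand).
RAB3A: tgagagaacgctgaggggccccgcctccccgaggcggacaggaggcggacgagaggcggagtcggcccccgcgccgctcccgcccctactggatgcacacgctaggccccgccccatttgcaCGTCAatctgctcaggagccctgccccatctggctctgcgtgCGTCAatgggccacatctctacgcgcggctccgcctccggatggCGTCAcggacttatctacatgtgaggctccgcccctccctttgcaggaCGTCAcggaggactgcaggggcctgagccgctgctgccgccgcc
DDIT4L: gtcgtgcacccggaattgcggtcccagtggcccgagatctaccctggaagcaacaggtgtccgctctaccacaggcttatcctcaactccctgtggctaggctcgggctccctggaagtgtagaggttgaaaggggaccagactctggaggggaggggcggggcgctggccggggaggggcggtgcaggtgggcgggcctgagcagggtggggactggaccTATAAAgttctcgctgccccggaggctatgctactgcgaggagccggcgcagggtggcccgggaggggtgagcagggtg
PTCH1: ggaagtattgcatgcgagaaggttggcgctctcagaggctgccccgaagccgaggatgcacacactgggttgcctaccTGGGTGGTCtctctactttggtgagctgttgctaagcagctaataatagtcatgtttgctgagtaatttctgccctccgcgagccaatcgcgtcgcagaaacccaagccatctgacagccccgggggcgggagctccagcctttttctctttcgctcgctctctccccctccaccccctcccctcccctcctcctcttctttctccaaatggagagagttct

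RAB3A held 4 matches to the cAMP element core, a count reached by 0.313% of all windows, while 24.6% held at least 1. The TATAAA of DDIT4L began 29 bases before the start, and 11.5% of all windows held one on either strand. The GLI match of PTCH1 began 172 bases before that start and is found in 0.236% of windows. GLI factors are known to bind the PTCH1 promoter. Beyond these, ARID5B held TATAAA on the reverse strand in its upstream window and none of the other letters searched in either. The 4 genes shared no searched motif across all of them.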

How the data were processed

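RNA of HCT116 cells was read as 12 libraries with a TruSeq RNA kit, per the labels' protocols. The deposited values are raw read counts per gene symbol, not normalized. The submitters' processing notes list the tools STAR (2.4), SAMtools (1.2) and Subread (1.4.6, with featureCounts) and the build GRCh38 (hg38). The annotation release, the strand setting and the treatment of multi-mapped reads are not given in the sources used here.

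These deposited counts were modelled with edgeR 4.0.16 under R 4.3.3, after filterByExpr and TMM scaling, using 1 coefficient per group over all 12 libraries and robust quasi-likelihood F-tests. Benjamini-Hochberg adjustment ran over 13084 genes, and a gene was called at an adjusted p under 0.05. Standard errors are Wald errors scaled by the posterior quasi-dispersion, and 95% intervals are 1.96 such errors. Replicates are biological per the labels. Each p sets a difference between groups only against the spread within groups of these 12 libraries, estimated with information shared across genes. Gene models came from GENCODE 29, which gave transcript GC content for 12186 tested genes (93.1%), and promoters from RefSeq. The fit was also run on simulated counts with known fold changes, and its outcome there is not given here.

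The 5 genes, the lists and the searched motifs were chosen with earlier results of these data known. Named beside the 5 were their paralogs and partners, up to 4 called genes per list and comparison, the 3 genes on each side of the 2-fold threshold and the 3 most alike per gene. The other genes at least 2-fold lower with TNF, the neighbouring genes and MPV17L2 were named after their values were seen. Alternatives were RLE factors, DESeq2 1.42.0, no filter, the compared groups alone, a replicate block, GC-corrected offsets, and leaving out each library or 2 together.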

Additional observations from a re-analysis of the deposited data

How the results depend on the processing

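All 5 genes kept their direction and their call with both agents against Senexin B in each of the 19 alternatives. They also kept both in TNF against control. There the choice of the genes required the fall to hold in the 12 fits without 1 library, so that part is a description. None of the 5 was called in the Senexin B comparisons or the interaction under any alternative. Log2 fold changes with both agents against Senexin B ranged from -1.74 to -1.31 for ARID5B, -1.23 to -1.13 for RAB3A, -1.30 to -0.91 for DDIT4L, -1.33 to -1.203 for ZNF488 and -0.71 to -0.58 for PTCH1. At 12 to 159 counts a library, counting error limits the precision of each gene.

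Counts over all genes moved more. In TNF against control, 1309 genes were called, 838 by DESeq2 and 876 to 1348 without 1 library. With both agents against Senexin B 779 were called, 523 by DESeq2 and 583 to 916 without 1 library. In Senexin B against control 398 were called, 255 by DESeq2 and 236 to 589 without 1 library. In TNF plus Senexin B against TNF 713 were called, 410 by DESeq2 and 451 to 815 without 1 library. The interaction called 6, 10 with no filter on low counts and 2 to 9 without 1 library.

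Values near 0 without a call changed sign. In TNF plus Senexin B against TNF, DDIT4L was at 0.0040 with no filter, 0.0047 with the replicate block, 0.045 with GC-corrected offsets, 0.0067 by DESeq2 and -0.24 to 0.24 without 1 library. ZNF488 was there at -0.015 with GC-corrected offsets, -0.00130 without control replicate 1 and TNF replicate 1 together and -0.060 to 0.112 without 1 library. The interaction without 1 library ran from -0.19 to 0.23 for ARID5B, -0.069 to 0.225 for RAB3A, -0.10 to 0.37 for DDIT4L and -0.146 to 0.026 for ZNF488, and it was -0.041 for DDIT4L without those 2 libraries. With TNF, RAB3B was at 0.0012 with no filter, 0.055 without the 2 libraries and -0.040 to 0.070 without 1, and PHF2 at 0.060 without the 2 and -0.154 to 0.00737 without 1. With both agents against Senexin B, SUFU was at 0.0028 with GC-corrected offsets and -0.056 to 0.013 without 1 library, while RAB3B ran from -0.020 to 0.056 and PHF2 from -0.014 to 0.096 without 1 library. The cause was not tested.

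Same-numbered replicates of different groups deviated together weakly (median r 0.017, from -0.01 to 0.10 over 18 pairs, across genes). The 36 pairs of other numbers had a median r of -0.0099, from -0.08 to 0.05. The numbers were not taken as pairs in the main fit. With the replicate block the counts of calls were 1470 (1309 without it) for TNF against control and 827 (779) for both agents against Senexin B. They were 479 (398) for Senexin B alone, 871 (713) for both agents against TNF and 6 (6) for the interaction. The 5 genes kept their calls.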
